A study of Homo sapiens with 40 samples.

Results

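The regions described here are the edges of topologically associating domains (TADs) that were present in control A549 cells and had no counterpart in SETDB1 knockout cells. TADs are stretches of chromosome whose parts contact each other more than they contact neighbouring stretches, as seen by Hi-C, which counts ligations between DNA ends that lie close together in the nucleus. A control boundary, meaning a unique start or end position of a control TAD, was taken as control-only when no start or end of a knockout TAD lay within 20 kb. The members were thus chosen by positions in both TAD lists, and their distances and covering TADs are descriptions. By this rule 387 of 7011 control boundaries (5.52%, 95% Wilson interval 5.01 to 6.08) were control-only. Of the others, 5469 (78.0%) had a knockout boundary at the same position and 1155 (16.5%) had one at 20 kb, and these 6624 are called kept. The positions lie on a 20 kb grid, so the boundaries just outside the limit were the 187 control-only ones at 40 kb. The knockout list held 7205 boundaries, of which 536 had no control boundary within 20 kb.

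Boundaries form where loop-extruding cohesin is halted, most often at sites bound by the zinc finger protein CTCF, and they also lie where active and repressed chromatin meet. On a larger scale chromosomes fold into an A compartment of active chromatin and a B compartment of repressed chromatin. SETDB1 is an enzyme that methylates lysine 9 of histone H3, and its product H3K9me3 marks silenced chromatin. H3K27me3 is the separate repressive mark of the Polycomb system, and H3K27ac and H3K4me3 mark active enhancers and promoters.

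A549 is an established lung adenocarcinoma line that carries K-RAS G12S, and both genotypes share that allele and the same culture medium (DMEM with serum). In the knockout, SETDB1 was disrupted with CRISPR/Cas9 and a guide RNA cloned into the PX458 plasmid. Whether the knockout cells are 1 clone is not given in the sources used here. The 40 samples comprised 2 Hi-C libraries per genotype, 2 ChIP-seq libraries per genotype and target with their inputs, and 3 RNA-seq libraries per genotype. The targeted transcript was measured at 37.5, 39.6 and 38.8 CPM (counts scaled to library size) in the control libraries and at 23.4, 21.2 and 21.1 CPM in the knockout libraries. The SETDB1 groups did not overlap (log2 fold change -0.82, SE 0.060; edgeR adjusted p 1.7e-12), and transcript remained in the libraries labelled knockout.

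RNA-seq libraries held 18065062 to 48364919 counts. The epithelial genes KRT8, KRT18, KRT7, CDH1 and EPCAM had counts in every library, whereas the leukocyte, endothelial and fibroblast genes PTPRC, CD3E, VWF, COL1A2 and DCN had 0 to 2 counts in each. CDH5, an endothelial cadherin, had 0.289 ± 0.0835 CPM in the control and 4.53 ± 0.67 CPM in the knockout libraries (SD, n = 3 each), and COL1A1 at 3.10 and 3.83 CPM. Each mark and each genotype has 1 peak list and each genotype 1 TAD list, so values from them carry no replicate error, and their intervals cover counting error only. Between the lists, H3K9me3 peaks covered 344.1 Mb of the genome in control and 623.5 Mb in knockout, and CTCF peaks numbered 23903 and 34474. All positions are on hg19, and a boundary is given by the last base before it.

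Most control-only boundaries lay in the interior of a knockout TAD. Of the 387, 378 (97.7%) fell in the interior of a knockout TAD and 9 fell between knockout TADs. The covering knockout TAD had a median length of 460 kb, against a median of 340 kb for the control TADs that met at these boundaries, and 95 of 378 (25.1%) were at least 1 Mb long. These values follow in part from the rule, which used both TAD lists, and are given as a description.

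A clean fusion of neighbours was the less common form. Of the control-only boundaries, 234 separated 2 control TADs that touched, 82 only started a TAD and 71 only ended one. Among the 234, the knockout TAD matched both outer edges of the neighbouring control TADs within 20 kb in 54 (23.1%, 18.1 to 28.9). One outer edge matched in 153 (65.4%) and none in 27 (11.5%). The nearest knockout boundary was itself absent from control for 207 of the 387 (53.5%). Over 20 kb inside the edges of the covering knockout TAD, no other control boundary lay for 298 members and at least 1 other for 80. Pairs of neighbouring members within 40 kb numbered 16, so some windows overlap and members are not independent of each other.

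The distance to the nearest knockout boundary separated the control-only boundaries by compartment. The deposited compartment signal is a signed score per 100 kb bin. A boundary took the signal of the bin that holds it, or the mean of both adjoining bins where it fell on a bin edge. It is called A where the mean of the 2 control libraries was above 0 and B where it was below 0. Peaks of H3K27ac in control covered 6.95% of windows at grid positions called A and 0.434% of those called B. Of the 350 control-only boundaries with a signal, 196 were A and 154 were B. The control-only share was 3.98% (3.47 to 4.56) of 4926 A boundaries and 9.12% (7.84 to 10.6) of 1688 B boundaries. Among A members, 20 of 196 (10.2%, 6.70 to 15.2) lay over 100 kb from a knockout boundary, against 77 of 154 (50%, 42.2 to 57.8) B members. The covering knockout TADs had a median length of 300 kb for A members and 1160 kb for B members, and 89 of the 154 B members lay in knockout TADs of at least 1 Mb. Control TADs were also longer in B. Those that met at the members had a median of 240 kb in A and 570 kb in B, and at kept boundaries 280 and 440 kb. Part of the A and B difference was thus present in control.

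**Figure D1:**
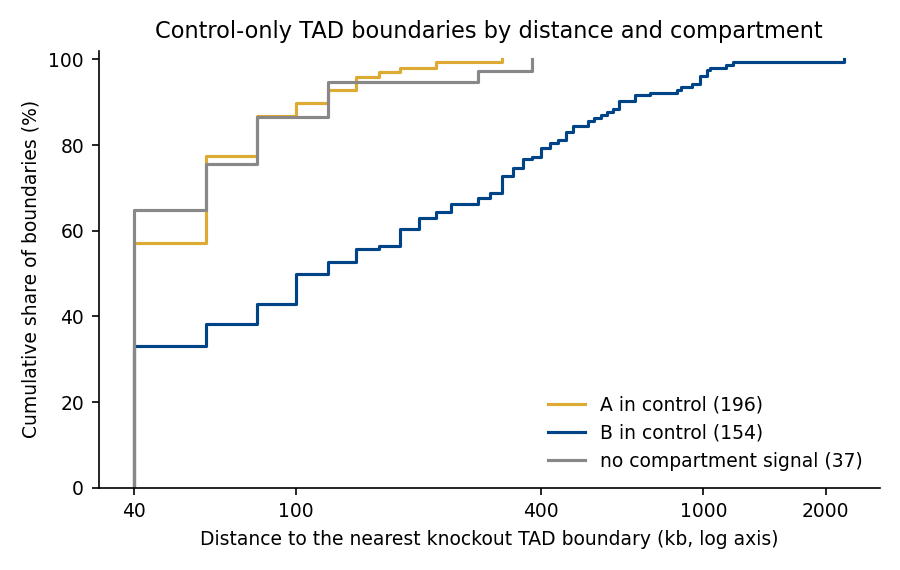
Cumulative share (%) of control-only boundaries against the distance to the nearest knockout TAD boundary (kb, log axis), with 1 line for boundaries called A, B or without compartment signal in control. The B line rises slowest: 50% of B members and 10.2% of A members lie over 100 kb from a knockout boundary.

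H3K9me3 peaks, which come from libraries that the rule did not use, covered more of the chromatin around the control-only boundaries in knockout cells. Within 20 kb on each side, peaks covered a mean of 9.17% of the window in control and 20.5% in knockout, whereas around kept boundaries the means were 8.42% and 4.24%. The share of control-only boundaries with any H3K9me3 peak in the window went from 61.8% (239 of 387) to 40.8%; the knockout list held 53949 peaks against 102976 in control. A rise, defined as a gain of at least 20 percentage points in covered share, was found at 96 control-only boundaries (24.8%, 20.8 to 29.3), beside 5.43% of all control boundaries and 4.30% of kept ones. A fall of at least 20 points was found at 36 (9.30%), beside 9.86% of all control boundaries. Of the 381 control boundaries with a rise, 96 (25.2%) were control-only.

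The rise lay almost wholly at members in B. It was found at 93 of 154 B members (60.4%, 52.5 to 67.8) and at 262 of 1534 kept B boundaries (17.1%, 15.3 to 19.0), beside 21% of all B control boundaries. Only 1 of 196 A members had a rise, and 2 of the 37 without a signal. B members within 100 kb of a knockout boundary had a mean covered share of 9.04% in control and 33.8% in knockout, and those farther away 9.30% and 61.4%. At least 50% of the window was under H3K9me3 at 4 of 154 B members in control and at 78 (50.65%) in knockout, against 46 and 185 of 1534 kept B boundaries.

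Repressed chromatin in general gained H3K9me3 peaks in the knockout list, so the same windows were measured at every position of the 20 kb grid. A rise was found at 55.7% of 59156 B grid positions and at 1.32% of 72841 A grid positions. Pooled over B, the members' interval (52.5 to 67.8) held this grid share, and the kept B boundaries stood below it. The pooled sets differ in signal, since 39210 of the B grid positions fell in the tercile of lowest signal defined below. Since B members had a lower control signal than kept B boundaries (medians -0.439 and -0.298), the comparison was repeated within terciles of the signal over all B control boundaries. In the tercile of lowest signal the rise was found at 78.2% (67.8 to 85.9) of 78 members, 72.2% of grid positions and 36.9% (32.7 to 41.3) of 485 kept boundaries. The middle tercile gave 52.1% (38.3 to 65.5) of 48 members, 31.4% of grid positions and 13.4% of kept boundaries. The highest tercile gave 25% (12.7 to 43.4) of 28 members, 14.0% of grid positions and 2.62% of kept boundaries. In each tercile the members' interval lay above the share of kept boundaries. In the lowest and highest terciles it held the share of grid positions, and in the middle tercile it lay above that share.

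**Figure D2:**
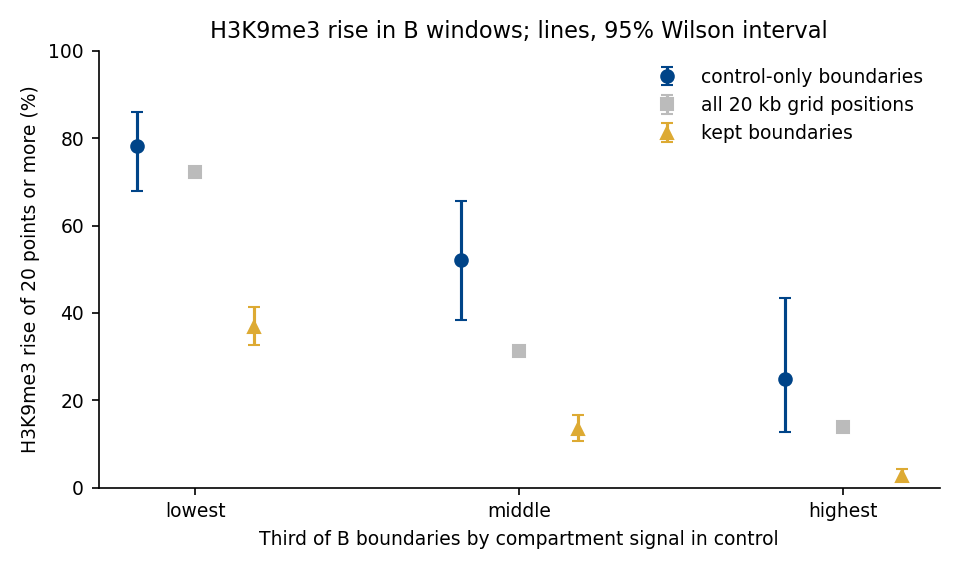
Share of B windows (%) with an H3K9me3 rise of at least 20 points, for control-only boundaries, all 20 kb grid positions and kept boundaries, within terciles of control compartment signal; points are shares and lines 95% Wilson intervals. Kept boundaries are lowest in each tercile, at 36.9%, 13.4% and 2.62%.

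The shape around the boundary differed between the sets. At kept B boundaries the knockout H3K9me3 coverage dipped toward the boundary, from 30.9% of the 20 kb step centred 390 kb before it and 34.0% of the step 390 kb after it to 14.7% and 14.9% of the steps on each side of it. At control-only B boundaries the coverage was 49.2% and 43.3% in the outer steps and 47.6% and 47.5% on each side of the boundary, and over all steps it ranged from 41.2% to 56.3%. Control coverage was flat in both sets, between 8.9% and 11.5% in those steps.

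**Figure D3:**
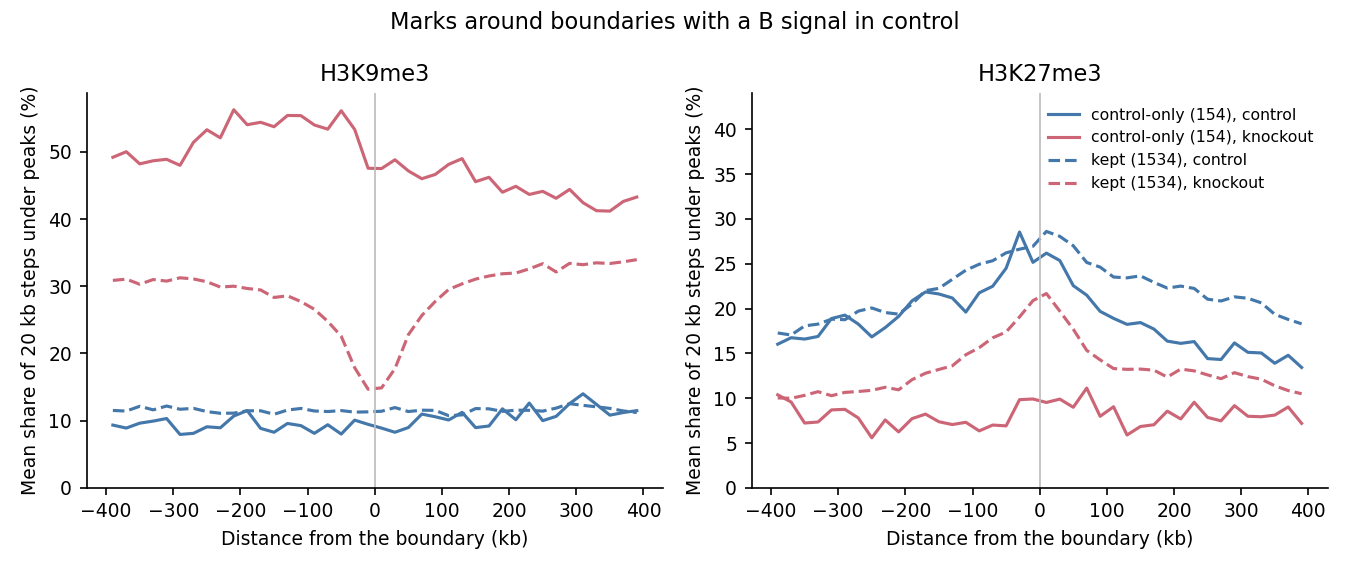
Mean share (%) of 20 kb steps covered by H3K9me3 (left) and H3K27me3 (right) peaks against distance from the boundary (kb), for 154 control-only (solid) and 1534 kept (dashed) B boundaries in control and knockout. Knockout H3K9me3 dips to 14.7% at kept boundaries and stays at 47.6% at control-only ones, and the H3K27me3 crest at control-only boundaries in control, 26.2% just after the boundary, is at 9.53% in knockout.

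H3K27me3, the Polycomb mark, had a lower mean covered share in knockout at the 96 members with an H3K9me3 rise, 3.36% against 26.0% in control. The H3K27me3 covered share had a mean of 16.6% in control and 11.3% in knockout at all control-only boundaries, against 12.1% and 11.4% at kept ones. A fall of at least 20 points was found at 61 members (15.8%, 12.5 to 19.7), beside 5.68% of all control boundaries, and a rise at 17 (4.39%), beside 2.41%. Of the 61 members with a fall, 43 also had an H3K9me3 rise. Both together were found at 43 of 387 members (11.1%, 8.35 to 14.6) and at 118 of 6624 kept boundaries (1.78%). Most of this gap lay in the H3K9me3 rise itself. Of the 381 control boundaries with an H3K9me3 rise, 96 were members, 43 of them with the H3K27me3 fall. The rest were kept boundaries, 118 of them with the fall, a similar share. At B members the H3K27me3 mean went from 25.7% to 9.72%, and at A members from 11.04% to 12.75%. Over B grid positions it went from 19.7% to 10.9%, so a lower value in knockout was common to B chromatin.

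The whole knockout TADs that covered the B members had, at the median, more H3K9me3 and less H3K27me3 in knockout. Their H3K9me3 covered share had a median of 9.13% in control and 72.5% in knockout, and their H3K27me3 share 13.0% and 2.77%. The H3K9me3 medians were 9.68% and 81.9% for B members with an H3K9me3 rise. For the 61 B members without one they were 7.30% and 8.28%. In B grid windows, H3K9me3 covered a mean of 15.6% in control and 49.3% in knockout. For the knockout TADs that covered A members, the H3K9me3 medians were 6.52% and 0%.

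CTCF, the main boundary protein, was found near fewer control-only than kept boundaries in either genotype. A control CTCF peak lay within 20 kb of 141 of 387 members (36.4%, 31.8 to 41.3) and of 50.2% of kept boundaries, and a knockout peak near 47.8% and 67.9%. With the knockout list reduced to its widest peaks, in equal number to the control list, the knockout shares were 37.2% and 56.9%, and the first lies within the interval of the members' control share. At B members the control share was 34.4% (27.4 to 42.2) and the reduced knockout list gave 26.0% (19.7 to 33.4), where the intervals overlap. At kept B boundaries these shares were 46.6% and 48.8%. No peak of either list lay near 180 members (46.5%, 41.6 to 51.5), against 28.7% of kept boundaries. The nearest control CTCF peak was at a median of 33.3 kb from members and 20.1 kb from kept boundaries. Members stood above grid positions of the same compartment. In A, 38.3% of members in control and 56.1% in knockout had a peak, against 27.8% and 41.5% of grid positions. In B, the shares were 34.4% and 39.0%, against 25.3% and 27.6%.

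Most control-only boundaries had no control CTCF peak within 20 kb, and 141 had one that could be lost. A peak in control with none in knockout was found at 22 members (5.69%, 3.78 to 8.46), beside 3.55% of all control boundaries. Counted over boundaries with a control peak, this was 22 of 141 members and 249 of 3468 control boundaries, a larger share at members. A peak in knockout with none in control was found at 66 members (17.1%), beside 20.9%. Peaks in both lists lay near 119 of 387 members, a smaller share than among all control boundaries. These 119 boundaries were absent from the knockout TAD list with CTCF peaks called within 20 kb in both genotypes.

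At the level of single peaks, control CTCF peaks at B members had no knockout partner more often than those at kept B boundaries. The share over all control CTCF peaks, or over those in B chromatin away from boundaries, was not measured. Of 195 control CTCF peaks in the members' windows, 59 (30.3%, 24.2 to 37.0) overlapped no knockout peak, against 17.7% (16.7 to 18.8) of 5167 at kept boundaries. Over all control boundaries it was 975 of 5362 (18.2%). At B members 38 of 72 (52.8%, 41.4 to 63.9) had no partner, against 29.6% (26.9 to 32.4) at kept B boundaries. At A members it was 18 of 106 (17.0%, 11.02 to 25.3), against 14.7% (13.6 to 15.8), where the intervals overlap. Within the tercile of lowest signal, 25 of 41 peaks at members (61.0%, 45.7 to 74.3) and 123 of 311 at kept boundaries (39.55%, 34.3 to 45.1) had no partner, and in the other terciles the intervals overlap. Of 52 control CTCF peaks at the B members with an H3K9me3 rise, 34 (65.4%) had no knockout partner, against 4 of 20 at the B members without one.

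Marks of active chromatin were scarcer at control-only boundaries than at kept ones. An H3K27ac peak lay near 41.6% of members in control and 42.9% in knockout, against 59.8% and 62.6% of kept boundaries. For H3K4me3 the shares were 54.0% and 57.1%, against 71.3% and 74.4%. The split by compartment was wide, with an H3K27ac peak in control near 63.8% of A members and 12.3% of B members. Within A, 71.5% of kept boundaries had one, and within B 27.6%, so members were lower than kept boundaries in both compartments. A gain of at least 20 points of H3K27ac was found at 2 members, beside 0.485% of all control boundaries, and a loss at 1, beside 0.342%. For H3K4me3 a gain was found at 1 member, beside 0.0856% of all control boundaries, and a loss at 0, beside 0.0285%. The 536 knockout-only boundaries had an H3K4me3 peak near 45.7% of them in control and 69.6% in knockout, and an H3K9me3 peak near 74.1% and 33.2%.

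**Figure D4:**
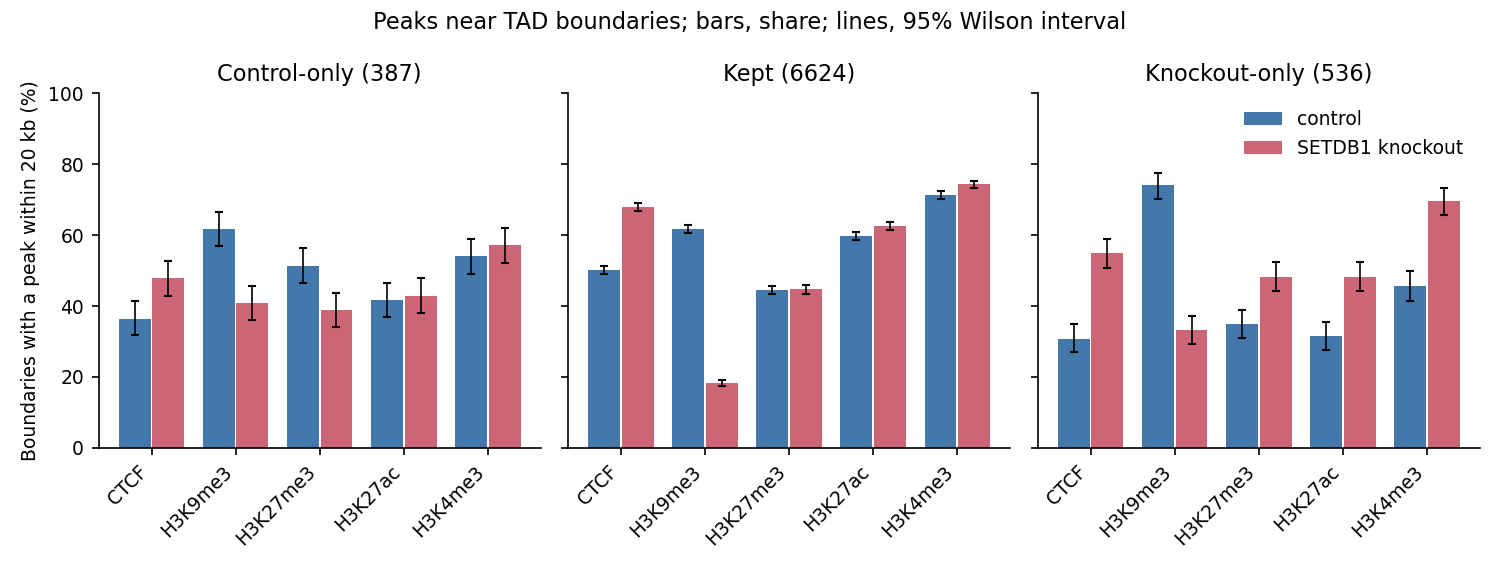
Share (%) of control-only, kept and knockout-only boundaries with a peak of each target within 20 kb in the control and knockout lists; bars are shares and lines 95% Wilson intervals. At control-only boundaries H3K27ac stands at 41.6% and 42.9% and H3K9me3 at 61.8% and 40.8%.

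The median compartment signal of B members was lower in both knockout libraries than in both control libraries. The medians were -0.448 and -0.441 in the control libraries and -0.739 and -0.720 in the knockout libraries. For A members the medians were 0.632 and 0.6185 in control and 0.657 and 0.605 in knockout, which overlap. The signal and the TADs come from the same Hi-C libraries, so these values describe the members and no support is drawn from them. The mean knockout signal was lower at 117 of 154 B members (76.0%), against 62.6% of kept B boundaries and 60.8% of B grid positions.

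By limma, the bin after the boundary was lower in knockout (adjusted p under 0.05) at 159 of 355 members with a tested bin (44.8%), beside 37% of control boundaries and 37.3% of all bins. It was higher at 63 members (17.8%), beside 16.5% of control boundaries and 21.5% of all bins. The limma adjusted p-values printed for single boundaries also belong to the bin after the boundary, even where the printed signal is a mean of both adjoining bins. Of the 93 B members with an H3K9me3 rise, this bin was lower at 77 and higher at 0. The same count for kept B boundaries with a rise was not made. The median change in signal was -0.329 at these 93 members. It was 0.078 at the 61 B members without a rise and -0.083 at kept B boundaries. The sign of the signal went from A to B at 23 members (6.57%), beside 8.06% of control boundaries, and from B to A at 19 (5.43%), beside 3.61%. The contrast across the boundary was measured from the bins on each side. The sign of these bins was opposite at 27.5% of B members in control and 14.8% in knockout, against 39.8% and 31.4% of kept B boundaries. The median absolute step in signal went from 0.311 to 0.154 at B members and from 0.384 to 0.397 at kept B boundaries.

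**Figure D5:**
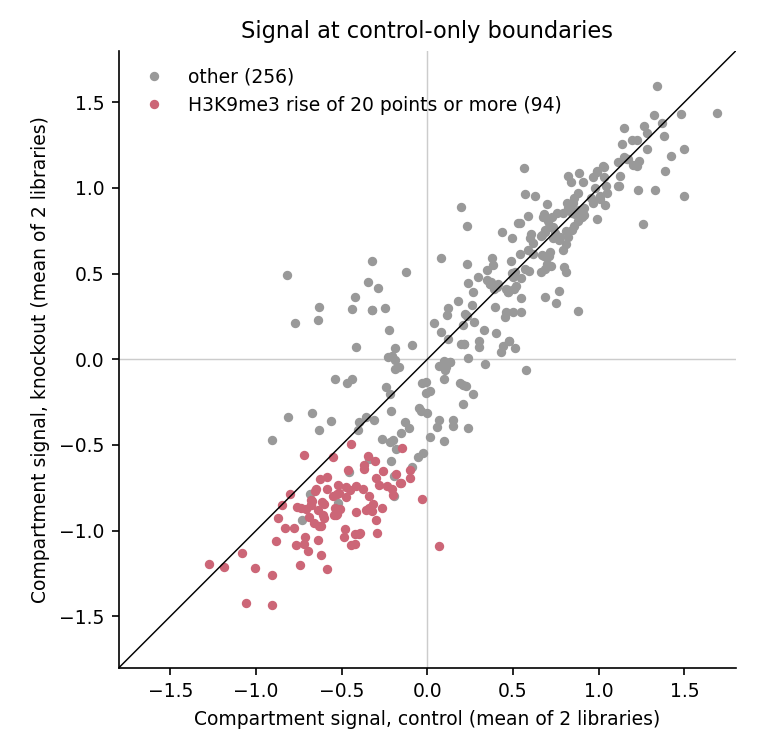
Compartment signal (score, mean of 2 Hi-C libraries) at 350 control-only boundaries in control (horizontal axis) and knockout (vertical axis), with the line of equality. The 94 with an H3K9me3 rise sit at negative knockout signal, nearly all of them below the line.

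The 5 longest gaps were in B chromatin, and 3 of these 5 windows held no CTCF peak in either genotype. The boundary farthest from any knockout boundary was at position 108340000 of chromosome 10, at 2220 kb. It separated control TADs of 2220 and 3300 kb, and 1 knockout TAD of 5500 kb, chr10:106120001-111620000, spanned both with edges within 20 kb of theirs. H3K9me3 covered 37.85% of its window in control and 100% in knockout, and no CTCF, H3K27me3, H3K27ac or H3K4me3 peak lay there in either genotype. Its compartment signal was -0.908 and -0.833 in control and -0.941 and -0.907 in knockout, which the limma test did not separate (adjusted p 0.326). The next were at 137200000 and 137160000 of chromosome X, at 1180 and 1140 kb. A knockout TAD of 2840 kb with 4 control boundaries inside covered them, and H3K9me3 went from 0% to 74.6% and 57.4%. The neighbours at 115780000 and 115760000 of chromosome 2, at 1040 and 1020 kb, lay inside a knockout TAD of 3820 kb, chr2:114740001-118560000, and each window held a control CTCF peak with no knockout partner.

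Among the members that lost most CTCF peaks, position 2680000 of chromosome 8 had 3 control peaks, the nearest at 0.587 kb, and the nearest knockout peak was at 105 kb. Its window went from 16.2% to 100% under H3K9me3, and its signal from -1.06 and -1.06 to -1.44 and -1.40 (limma adjusted p 3.135e-05). Position 50200000 of chromosome 17 lost 3 control peaks, held 1 knockout peak elsewhere in the window, and went from 5.86% to 100% under H3K9me3. Position 16720000 of chromosome 2 lost 2, and H3K27me3 there went from 48.9% to 0% while H3K9me3 went from 0% to 96.65%. In all 3 the lost peaks lay in B chromatin that was almost wholly under H3K9me3 in knockout.

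The members with the largest H3K9me3 rise went from bare to fully covered windows. Position 12580000 of chromosome 17 went from 0% to 100%, with a signal of -0.393 and -0.408 in control and -0.990 and -1.05 in knockout (limma adjusted p 7.96e-07). Small H3K27ac and H3K4me3 peaks covered 1.84% and 7.61% of this window in control and 0% and 2.73% in knockout. Position 42900000 of chromosome 4 also went from 0% to 100%, inside a knockout TAD of 2100 kb. Position 101600000 of chromosome 5 went from 2.88% to 100%, although its signal was -0.874 and -0.826 in control and -0.835 and -0.867 in knockout, which overlap.

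Of the 36 members with an H3K9me3 fall, the 3 largest falls were followed. Position 25300000 of chromosome 15 went from 100% to 0% under H3K9me3, inside a knockout TAD whose covered share went from 88.25% to 17.65%, and it has no compartment signal. Position 19880000 of chromosome 19 went from 83.9% to 0% and is one of the 9 members outside every knockout TAD. Position 52220000 of chromosome 19 went from 86.4% to 3.3%, its signal from -0.672 and -0.604 to 0.222 and 0.237 (limma adjusted p 9.275e-08), and its H3K27ac covered share from 12.4% to 29.0%.

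The compartment signal moved farthest at members with unlike marks. The largest fall was at position 116180000 of chromosome 12, from 0.0478 and 0.0842 to -1.095 and -1.08 (limma adjusted p 1.32e-08), where H3K27me3 went from 87.35% to 11.2% and H3K9me3 from 42.8% to 88.0%. It is the single A member with an H3K9me3 rise. The falls at 98220000 of chromosome 8 and 136120000 of chromosome 5 came with the same exchange, H3K27me3 going from 54.7% and 48.0% to 0% and H3K9me3 from 28.0% and 8.08% to 85.7% and 56.7%. The largest rise in signal was at 47860000 of chromosome 8, from -0.879 and -0.756 to 0.479 and 0.506 (limma adjusted p 1.64e-08), with H3K9me3 going from 53.1% to 0.7425% and H3K27me3 from 6.03% to 46.2%. The rises at 13780000 of chromosome 7 and 180660000 of chromosome 2 had at most 3.48% of the window under H3K9me3 in either genotype.

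The members with most H3K27ac in control were followed as well. Position 95120000 of chromosome 10, with H3K27ac over 36.0% of its window in control and 77.4% in knockout, had a knockout boundary at 40 kb and was called A in both genotypes, at 0.845 and 0.862 in control and 0.916 and 0.972 in knockout (limma adjusted p 0.0927). Its 1 control CTCF peak had no knockout partner, and 2 knockout peaks in the window had no control partner. Position 36600000 of chromosome 19 had 46.8% and 25.8% of its window under H3K27ac and kept its CTCF peak, and its signal rose from 0.311 and 0.154 to 0.588 and 0.5255 (limma adjusted p 1.24e-05). Position 45920000 of chromosome 15 had 36.0% and 36.6% under H3K27ac and gained 2 CTCF peaks. The other members in the longest knockout TADs were at 91620000 of chromosome 6, in a TAD of 4380 kb, and at 79240000 of chromosome 11, in one of 4120 kb. Their H3K9me3 shares went from 0% and 10.4% to 87.9% and 100%, and their H3K27me3 shares from 32.15% and 31.0% to 0%.

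Chromosomes contributed unequally. On chromosome X 34 of 288 control boundaries (11.8%, 8.57 to 16.0) were control-only, and 15 of these had an H3K9me3 rise. These members had a lower control compartment signal than kept boundaries of that chromosome (medians -0.235 and 0.451), so the 15 are not set against them. Only 2 of the 34 had a control CTCF peak within 20 kb (5.88%), against 67 of 254 kept ones on that chromosome (26.4%). On chromosome 19, 18 of 196 (9.18%) were control-only and none had an H3K9me3 rise. The lowest share was 5 of 203 (2.46%) on chromosome 20. On the autosomes alone, 57.8% of B members and 16.6% of kept B boundaries had the H3K9me3 rise.

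Transcripts of the loop-forming machinery were measured in the same cell lines. Of 19 genes for CTCF, cohesin and their partners, 18 were tested, 3 were higher and 9 lower in knockout, with a median log2 fold change of -0.14 over the list and 0.0038 over all tested genes, beside 32.8% of all 17767 tested genes higher and 30% lower. SMC3, a core cohesin subunit, was at 178, 165 and 163 CPM in control and 97.3, 94.5 and 96.4 CPM in knockout libraries, with no overlap. For SMC3, edgeR gave a log2 fold change of -0.81 with SE 0.045 and an adjusted p of 3.68e-15. RAD21, the cohesin subunit that closes the ring, fell from 291 ± 5.47 to 243 ± 4.33 CPM (SD, n = 3 each), -0.27 on the log2 scale (edgeR adjusted p 1.65e-06). CTCF rose from 87.0 ± 2.27 to 95.7 ± 1.20 CPM (SD, n = 3 each), 0.14 on the log2 scale by edgeR (SE 0.045, adjusted p 0.0087), and without control replicate 3 this missed the threshold (edgeR adjusted p 0.06). ESCO2 and CDCA5, which act in cohesin acetylation and protection, had log2 fold changes of -0.60 and -0.49 (edgeR adjusted p 1.11e-11 and 2.61e-09). HDAC8, the SMC3 deacetylase, had -0.47 and the zinc finger factor MAZ 0.48 (edgeR adjusted p 3.08e-05 and 9.31e-06). Their part in the boundaries was not tested.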

How the data were processed

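The authors deposited 1 list of TADs per genotype and 1 peak list per target and genotype, which hold positions only, and a compartment score per 100 kb bin for each Hi-C library. The authors deposited RNA-seq as whole-number counts per gene and library, not normalized. The submitters' processing notes name STAR 2.6.1c, edgeR 3.30.0, Bowtie2 2.2.3, SAMtools 1.5, Picard, MACS2 and hg19. The TAD caller, the compartment method, peak thresholds and the pooling of libraries are not given in the sources used here. Chromatin was cut with MNase for histone marks and sonicated for CTCF, and Hi-C used DpnII, per the labels. One list per genotype means that an absent boundary can also be one that fell short of the caller's limit, which cannot be told apart here. No per-sample column went unmapped (0 columns). Inputs were not used here.

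Boundaries were compared in Python 3.11.15 with numpy 2.4.6, pandas 2.3.3 and scipy 1.17.1. Marks were measured as the share of a window of 20 kb on each side under merged peaks. Compartment bins were tested with limma 3.58.1 (robust eBayes, 26503 bins, 2 libraries per genotype) and genes with edgeR 4.0.16 (quasi-likelihood F-test with robust fitting, TMM scaling and filterByExpr, 3 libraries per genotype) in R 4.3.3, with Benjamini-Hochberg adjustment at 0.05. CPM used TMM-scaled library sizes. Nothing in the labels says that libraries came from separate cultures, so p-values measure the spread between libraries, which may be technical. Scripts were tested on simulated data. Of 62486 gene IDs, 58642 (93.8%) matched the name table.

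The boundaries, gene list and windows were chosen with earlier results of these data known. Named boundaries are those farthest from a knockout boundary (5), with most lost CTCF peaks, with the largest H3K9me3 and signal changes each way, with most control H3K27ac, and under the longest knockout TADs (3 of each). Named genes are CTCF, RAD21, SMC3 and the 5 largest called changes of the list. The rise limit, the terciles and the grid positions were chosen after seeing the data. Alternatives were other distance limits and windows, equal CTCF numbers, autosomes, other scalings and filters, DESeq2 1.42.0, a replicate block and leaving out each library. Replicate numbers were not taken as pairs in the main fits. Correlations of same-numbered deviations were weakly positive in RNA-seq, at 0.211, 0.134 and 0.0709, and -0.00257 in Hi-C. No RNA-seq pair agreed within sampling noise.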

Additional observations from a re-analysis of the deposited data

How the results depend on the processing

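Of 397 values under alternatives, 340 were held as unchanged, 53 moved, 2 reversed, 1 became weaker and 1 stronger. Shares, means and medians moved when they left the interval of the main value. Fold changes were judged by direction and side of the threshold. Counts had no interval, and 12635 called bins against 15584 was held as unchanged. The causes were not tested, beyond what a wider or narrower window gives by construction. Counting only identical positions as shared gave 1542 control-only boundaries, and a limit of 40 kb gave 200. With windows of 10 kb, then 40 kb, on each side, shares of members with a peak in control were 22.0% and 54.5% (CTCF), 46.8% and 80.6% (H3K9me3), 46.25% and 61.2% (H3K27me3), 28.7% and 53.0% (H3K27ac), and 36.95% and 71.3% (H3K4me3). In knockout they were 31.5% and 67.7%, 34.1% and 45.2%, 31.8% and 48.8%, 29.7% and 57.1%, and 40.6% and 71.6%. With equal CTCF peak numbers the knockout share was 37.2%. Members over 40 kb from a knockout boundary gave shares of 67.0% and 52.0% (H3K9me3, control and knockout), 58.0% (H3K27me3, control), 35.5% and 37.0% (H3K27ac), and knockout means of 29.8% (H3K9me3), 3.13% (H3K27ac) and 3.83% (H3K4me3). The B members' share with an H3K9me3 rise was 50.65% for 40 points and 69.9% over 40 kb away. For kept B boundaries it was 19.2% with 40 kb windows, 22.2% for 10 points and 11.8% for 40 points. Mergers with exactly matching edges were 10.7%. The members' median signal was 0.166 in control and 0.1345 in knockout, with a median change of -0.09345. It became 0.198, 0.118 and -0.0956 with the bin after the boundary alone, 0.238, 0.182 and -0.164 with columns divided by their SD, and 0.206, 0.216 and -0.0773 on autosomes. Leaving out each Hi-C library gave 0.151 to 0.153 in control, 0.145 to 0.146 in knockout and changes of -0.101 to -0.0916.

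STAG1 went from a log2 fold change of -0.0186 to 0.011 with library size only and to 0.0188 without the filter, past no threshold (edgeR adjusted p 0.756, 0.853 and 0.853). CTCF became weaker, at 0.12, without control replicate 3 (edgeR adjusted p 0.06). YY1 went from 0.072 to 0.10 with library size only, which passed the threshold (edgeR adjusted p 0.149 and 0.0494). The replicate block called 15929 compartment bins and 11655 genes, against 15584 and 11157 without it, and changed no other call. Leaving out each library gave 12635 to 15302 bins and 10174 to 11085 genes. Boundaries and peaks, with 1 list per genotype, allow no replicate check, and no sequencing depth of the Hi-C or ChIP-seq libraries was used here, so an absent peak or boundary may have been below detection.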
